A study of Mus musculus with 18 samples.

Results

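The PYHIN genes described here are Aim2 and 6 genes of the Ifi200 family, Ifi203, Ifi204, Ifi205, Ifi207, Ifi209 and Mndal. They were chosen by name, and all 7 were found among the 48795 genes of the deposited table. RNA was sequenced from GL261, a mouse glioma line that carries green fluorescent protein (GFP), after growth in mice and in culture. The 18 libraries form 6 groups of 3. Non-tumour cells of C57BL/6 wild-type (WT) hosts were sorted as GFP-. Tumour cells were sorted as GFP+ from hosts with the genotype Pfp/Rag2-/-, strain C57BL/6, and from WT hosts. Unsorted cells were taken from tumours of Pfp/Rag2-/- and of WT hosts, and the cultured GFP+ cells were those used for injection. The Pfp/Rag2-/- hosts have neither perforin, with which killer cells open pores in their targets, nor Rag2, which T and B cells need to mature, and they still have NK cells. Tumours came from 6 mice of each host once symptoms appeared, and were digested with collagenase. The age of the mice is not in the labels, and all tumours derive from 1 cell line. Whether each library is 1 mouse or a pool is not in the labels, so the p-values cover the spread between libraries alone.

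PYHIN proteins join a pyrin domain, which binds other pyrin domains, to one or more HIN domains, which bind DNA. AIM2 binds double-stranded DNA in the cytosol, recruits the adaptor ASC (gene Pycard) and so activates caspase-1, which cleaves gasdermin D and the precursors of the cytokines interleukin-1 beta and interleukin-18. Several Ifi200 genes are induced by interferons, and macrophages are known for high levels of them. IFI204 has been linked in mouse cells to DNA sensing through STING (gene Tmem173).

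All 7 genes lie on chromosome 1 (GRCm38, GENCODE vM21). Aim2 spans chr1:173350879-173466040 on the plus strand, and Ifi205, the member farthest from it, spans chr1:174011998-174031810 on the minus strand. Between them lie Ifi209 (chr1:173630917-173647928, plus), Ifi207 (chr1:173723427-173741747, minus), Ifi204 (chr1:173747293-173766943, minus), Mndal (chr1:173849126-173942491, minus) and Ifi203 (chr1:173920407-173942672, minus). The annotated span of Mndal overlaps that of Ifi203, and their exons share 37 bases on the same strand. The genes also share sequence. Of all windows of 50 bases in annotated transcripts, 33.4% of those of Ifi209, 19.6% of Mndal, 19.4% of Ifi204, 18.6% of Ifi205, 12.2% of Ifi203 and 7.29% of Ifi207 also occur in another gene of the locus, against 0.228% for Aim2. How reads from such windows were assigned is not given in the sources used here, so single values of the Ifi200 genes are uncertain to that extent.

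Promoters are shown to set the Ifi200 genes beside Aim2. Most of the Ifi200 windows hold an exact match to a short motif, whether or not the gene differed between hosts, and the Aim2 window does not. RefSeq promoter sequences (GRCm38.p6) were found for 6 of the 7 members, all but Ifi204, and for 6 other PYHIN genes. In the 250 bases before the start, on either strand, the core of the interferon response element, GAAA and GAAA with any 2 bases between them, was present in 4 of the 6 members and in 5 of the 6 other PYHIN genes, against 2.98% of 32851 promoter windows. The version GAAATCGAAA, read from Ifi203, stood in 3 members and 4 other PYHIN genes. It stood in 13 windows in all (0.0396%), those of Ifi203 and the other PYHIN genes included. The letters below run 5′ to 3′ on the gene's strand, with the motif in capitals.
Ifi203 (chr1:173942504-173942547, minus): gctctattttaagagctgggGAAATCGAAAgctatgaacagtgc
Mndal (chr1:173880200-173880243, minus): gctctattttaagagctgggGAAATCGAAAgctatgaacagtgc
Ifi207 (chr1:173741827-173741870, minus): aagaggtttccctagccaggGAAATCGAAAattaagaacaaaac
Ifi205 (chr1:174031866-174031909, minus): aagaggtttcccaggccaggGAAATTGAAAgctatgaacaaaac
Ifi209 (chr1:173630760-173630803, plus): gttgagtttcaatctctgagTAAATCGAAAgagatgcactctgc
Ifi211 (chr1:173913060-173913103, minus): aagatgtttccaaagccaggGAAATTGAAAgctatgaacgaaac
Ifi206 (chr1:173491335-173491378, minus): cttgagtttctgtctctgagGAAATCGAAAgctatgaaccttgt
Ifi213 (chr1:173599322-173599365, minus): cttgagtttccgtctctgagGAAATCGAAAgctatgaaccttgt
Aim2 (chr1:173420544-173420603, plus): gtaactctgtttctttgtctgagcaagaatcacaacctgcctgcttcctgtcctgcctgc

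The motif began 35 bases before the start in Ifi203, 36 in Mndal, 41 in Ifi207 and 134 in Ifi205. Among the other PYHIN genes Ifi206, Ifi208, Ifi213 and Ifi214 held GAAATCGAAA, and of these Ifi213 was not called between hosts in either setting. Ifi203 and Mndal had the same 44 bases around it. Ifi209 carried TAAATCGAAA, which differs from GAAATCGAAA by G1T, counted from 1 at the 5′ end of the 10 letters. That version, read from Ifi209 in a search that allowed 1 mismatch, occurred in 4 windows in all (0.0122%), its own included. No match to the core was found in the Aim2 window, whose 60 bases nearest the start are the ones printed. That start, from the 1 RefSeq window of Aim2, lies well inside the annotated span given above, as does the printed one of Mndal. Other starts of Aim2 were not searched. A match is a stretch of letters and not a measured binding site.

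Recovered library totals were 19172814 to 21141662 reads. After scaling, 1 read counted 1.31 to 1.54 in GFP- libraries and 0.871 to 0.958 in the others. Levels relative to GFP- cells depend on this scaling. Prf1, the perforin gene, was at 7.11, 13.6 and 16.2 in unsorted Pfp/Rag2-/- tumours, against 109, 99.0 and 139 in unsorted WT tumours, and at 117, 5.51 and 0.921 in Pfp/Rag2-/- GFP+ cells, against 118, 4.75 and 10.1 in WT GFP+ cells. Rag2 held at most 7 reads in any library, and none of its reads came from WT hosts. By library, unsorted tumours of the Rag2-deficient hosts held 5, 7 and 4 reads. Sorted tumour cells from the same hosts held 5 in library 1 and 0 in libraries 2 and 3. Culture had 1 read, in library 2. Gene counts do not show whether a read lies in a deleted part, and the source of these reads was not tested. Markers of host cells were detected in the sorted GFP+ libraries. The median of 18 macrophage and microglia markers, as a percentage of its GFP- level, was 2.54, 0.492 and 0.492 in Pfp/Rag2-/- GFP+ libraries 1 to 3, against 2.56, 0.750 and 1.67 in WT GFP+ libraries 1 to 3. Library 1 of the Pfp/Rag2-/- GFP+ cells stood apart, with NK cell markers at 23.1% of the GFP- level, against 0.770% and 0.386% in libraries 2 and 3. Library 1 was also the highest in WT GFP+ cells, with NK cell markers at 5.58%, against 0.284% and 0.275% in libraries 2 and 3. In the cultured cells 6 of the 18 macrophage markers were at 0 in all 3 libraries, Aif1, Itgam, Adgre1, Tyrobp, C1qb and C1qc, and all 18 summed to 690.5 to 801.3, against 443900 to 544000 in GFP- cells. All 7 glial progenitor markers were detected in every group. Results on GFP+ cells are given in addition, where they move, without the libraries numbered 1.

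**Figure D1:**
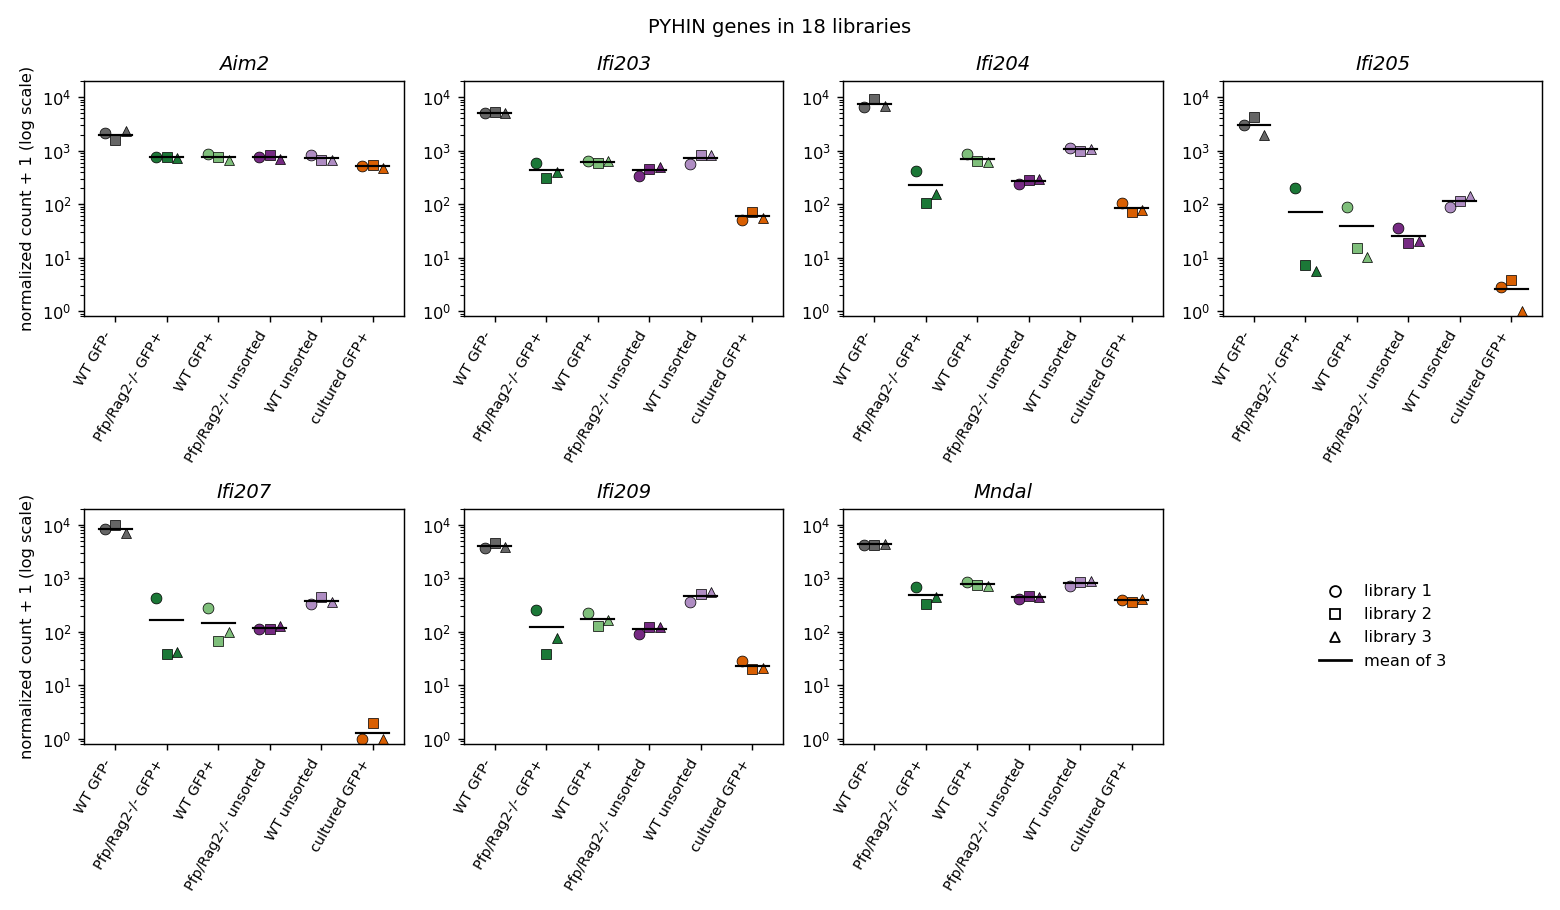
Normalized count plus 1 (log scale) of each PYHIN gene in every library; symbols are libraries 1 to 3 of a group and bars are means. Every gene is highest in GFP- cells, and Pfp/Rag2-/- GFP+ library 1 lies above libraries 2 and 3 for every gene but Aim2.

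Aim2, the DNA sensor of the inflammasome, was nearly flat across the tumours. Normalized counts of Aim2 were 2135, 1548 and 2310 in GFP- cells, 758, 759 and 724 in Pfp/Rag2-/- GFP+ cells, 849, 764 and 680 in WT GFP+ cells, 758, 843 and 691 in unsorted Pfp/Rag2-/- tumours, 827, 660 and 664 in unsorted WT tumours, and 518, 533 and 470 in culture. The GFP- libraries were all above and the cultured libraries all below the rest, and the 4 tumour groups between them overlapped.

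Ifi204, the member linked to STING, followed the host. It had 6679, 9413 and 6723 in GFP- cells, 416, 103 and 152 in Pfp/Rag2-/- GFP+ cells, 849, 646 and 600 in WT GFP+ cells, 238, 282 and 289 in unsorted Pfp/Rag2-/- tumours, 1124, 997 and 1055 in unsorted WT tumours, and 104, 69.8 and 76.3 in culture. Both kinds of WT tumour sample lay above both kinds of Pfp/Rag2-/- sample without overlap. In order of the mean, GFP- cells led, followed by unsorted WT tumours, WT GFP+ cells, unsorted Pfp/Rag2-/- tumours, Pfp/Rag2-/- GFP+ cells and culture, and the last 3 neighbours overlapped.

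Ifi203 and Mndal, whose annotated spans overlap, shared a pattern but not a cultured level. Ifi203 had 4965, 5313 and 4948 in GFP- cells, 593, 310 and 401 in Pfp/Rag2-/- GFP+ cells, 643, 587 and 635 in WT GFP+ cells, 337, 456 and 487 in unsorted Pfp/Rag2-/- tumours, 568, 821 and 825 in unsorted WT tumours, and 50.1, 71.6 and 53.4 in culture. Mndal had 4278, 4289 and 4428 in GFP- cells, 699, 324 and 454 in Pfp/Rag2-/- GFP+ cells, 858, 741 and 725 in WT GFP+ cells, 409, 475 and 448 in unsorted Pfp/Rag2-/- tumours, 718, 858 and 896 in unsorted WT tumours, and 395, 360 and 418 in culture. Among neighbours in order of the mean, only GFP- cells and culture stood apart for Ifi203. For Mndal, GFP- cells stood apart, as did WT from Pfp/Rag2-/- GFP+ cells, while culture overlapped with unsorted Pfp/Rag2-/- tumours.

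Ifi205, Ifi207 and Ifi209 were high in GFP- cells and low everywhere else. Ifi207 had 8284, 9809 and 6911 in GFP- cells, 420, 37.7 and 41.5 in Pfp/Rag2-/- GFP+ cells, 276, 65.6 and 99.5 in WT GFP+ cells, 115, 113 and 125 in unsorted Pfp/Rag2-/- tumours, and 335, 446 and 361 in unsorted WT tumours. In culture it had 1 read in all 3 libraries together. Thus in each host the GFP+ library 1 held more than libraries 2 and 3, and unsorted WT tumours lay above unsorted Pfp/Rag2-/- tumours.

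Ifi205, which in mouse macrophages has been linked to the expression of Pycard, had 3049, 4186 and 1967 in GFP- cells, 199, 6.43 and 4.61 in Pfp/Rag2-/- GFP+ cells, 89.1, 14.2 and 9.21 in WT GFP+ cells, 34.6, 18.1 and 19.8 in unsorted Pfp/Rag2-/- tumours, 86.7, 115 and 142 in unsorted WT tumours, and 2, 3 and 0 reads in culture. Ifi209 had 3732, 4651 and 3890 in GFP- cells, 258, 37.7 and 76.4 in Pfp/Rag2-/- GFP+ cells, 228, 128 and 168 in WT GFP+ cells, 88.8, 121 and 123 in unsorted Pfp/Rag2-/- tumours, 364, 506 and 545 in unsorted WT tumours, and 27.4, 18.9 and 20.03 in culture. For these genes GFP- cells stood apart from all other groups, and the sorted groups of the 2 hosts overlapped.

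Set per kilobase of annotated exon, so that genes can be compared, the make-up of the summed level of the 7 members differed between groups. In GFP- cells Ifi207 led with 2436 ± 424 per kb, followed by Ifi204 with 2136 ± 440 per kb, and Aim2 was lowest of the 7 with 571 ± 114 per kb (SD, n = 3). In culture Aim2 led the 7 with 145 ± 9.29 per kb and Mndal followed with 108 ± 8.01 per kb. Aim2 gave 6.52% ± 1.98 of the summed level per kb in GFP- cells, 40.97% ± 14.4 in Pfp/Rag2-/- GFP+ cells, 26.7% ± 2.18 in WT GFP+ cells, 39.6% ± 3.33 in unsorted Pfp/Rag2-/- tumours, 18.5% ± 3.33 in unsorted WT tumours and 49.7% ± 2.87 in culture. Ifi204 gave 9.96% ± 3.33 in Pfp/Rag2-/- GFP+ cells and 23.8% ± 0.782 in WT GFP+ cells. Among the 7, Ifi204 led in unsorted WT tumours. Aim2 led in both GFP+ groups and unsorted Pfp/Rag2-/- tumours, with Mndal close to it in WT GFP+ cells at 26.2%. Ifi213, a PYHIN gene outside the 7, was on average above these leaders in every group but GFP- cells. It averaged 436.6 per kb in Pfp/Rag2-/- GFP+ cells, 350.5 in WT GFP+ cells and 169.7 in culture. In unsorted tumours it averaged 249 per kb in Pfp/Rag2-/- and 310.3 in WT hosts. These shares and levels are a description and were not tested.

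**Figure D2:**
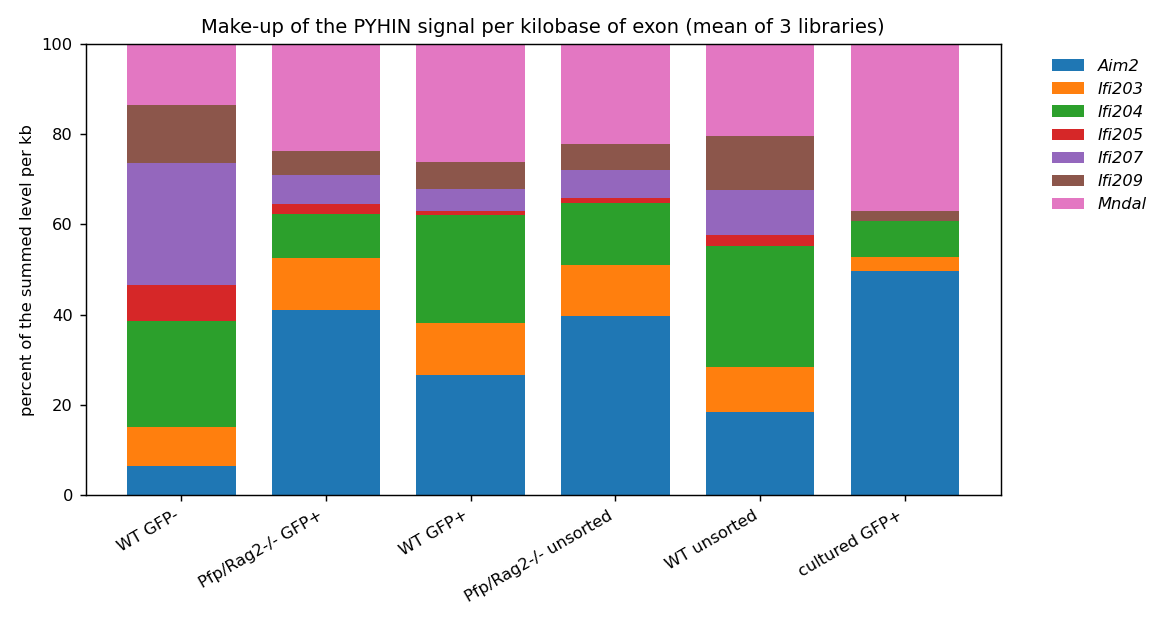
Percent of the level per kilobase of exon, summed over the 7 members alone, that each member gave, as the mean of 3 libraries per group; the spread over libraries is not drawn. Aim2 gives 49.7% in culture and 6.52% in GFP- cells, where Ifi207 and Ifi204 lead.

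The first host comparison asks how tumour cells differ after growth in Pfp/Rag2-/- mice, which lack perforin and Rag2, and in WT mice. Among sorted GFP+ cells, Ifi204 fell, averaging 224 ± 169 in Pfp/Rag2-/- hosts and 698 ± 132 in WT hosts (SD, n = 3 each), a log2 difference of -1.88 with a standard error (SE) of 0.47. It was the only one of the 7 members that passed the threshold, an adjusted p (Benjamini-Hochberg) below 0.05 (limma, adjusted p = 0.0240), with the Pfp/Rag2-/- libraries below the WT ones, as they were for 23.4% of all genes. Of all 14807 genes tested, 30.4% were called and 15.3% were called lower, so 1 of 7 is near the background. The median log2 difference was -0.57 over the 7 members and 0.02 over all genes tested. Log2 differences are of the normalized count plus 1.

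The Ifi204 call rested on single libraries. It was lost without Pfp/Rag2-/- library 2 (adjusted p = 0.0654) or 3 (0.0849) and without WT library 1 (0.0760) or 2 (0.0711), where no member was called and the calls over all genes fell to 2522 to 2938, against 4497 with every library. Without Pfp/Rag2-/- library 1 the difference was -2.46 (adjusted p = 0.000888), and without both libraries numbered 1 it was -2.31 (0.00146). With the macrophage share subtracted it was -2.24 (0.0114).

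Mndal and Ifi203 were lower on average but not called. Mndal had a log2 difference of -0.72 (SE 0.25, adjusted p = 0.0709) and Ifi203 of -0.57 (SE 0.22, adjusted p = 0.0872). With same-numbered libraries of the 2 hosts taken as pairs, which the labels do not state, 3 members were called lower by limma. These were Ifi204 (adjusted p = 0.00507), Mndal (0.0197) and Ifi203 (0.0348). Without Pfp/Rag2-/- library 1, 4 members were called lower, these 3 and Ifi209 (log2 -1.65, adjusted p = 0.0219).

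Aim2 differed by -0.03 on the log2 scale (95% interval -0.24 to 0.18, limma adjusted p = 0.838), and its libraries overlapped. For Ifi205, Ifi207 and Ifi209 the intervals were wide and held 0. They ran from -3.71 to 3.21 for Ifi205, from -2.78 to 1.83 for Ifi207 and from -2.41 to 0.62 for Ifi209. For Ifi205 and Ifi207 the mean count was higher in Pfp/Rag2-/- GFP+ cells than in WT GFP+ cells, at 70.0 against 37.5 and at 166 against 147, while the mean log2 difference was negative, at -0.25 and -0.47.

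**Figure D3:**
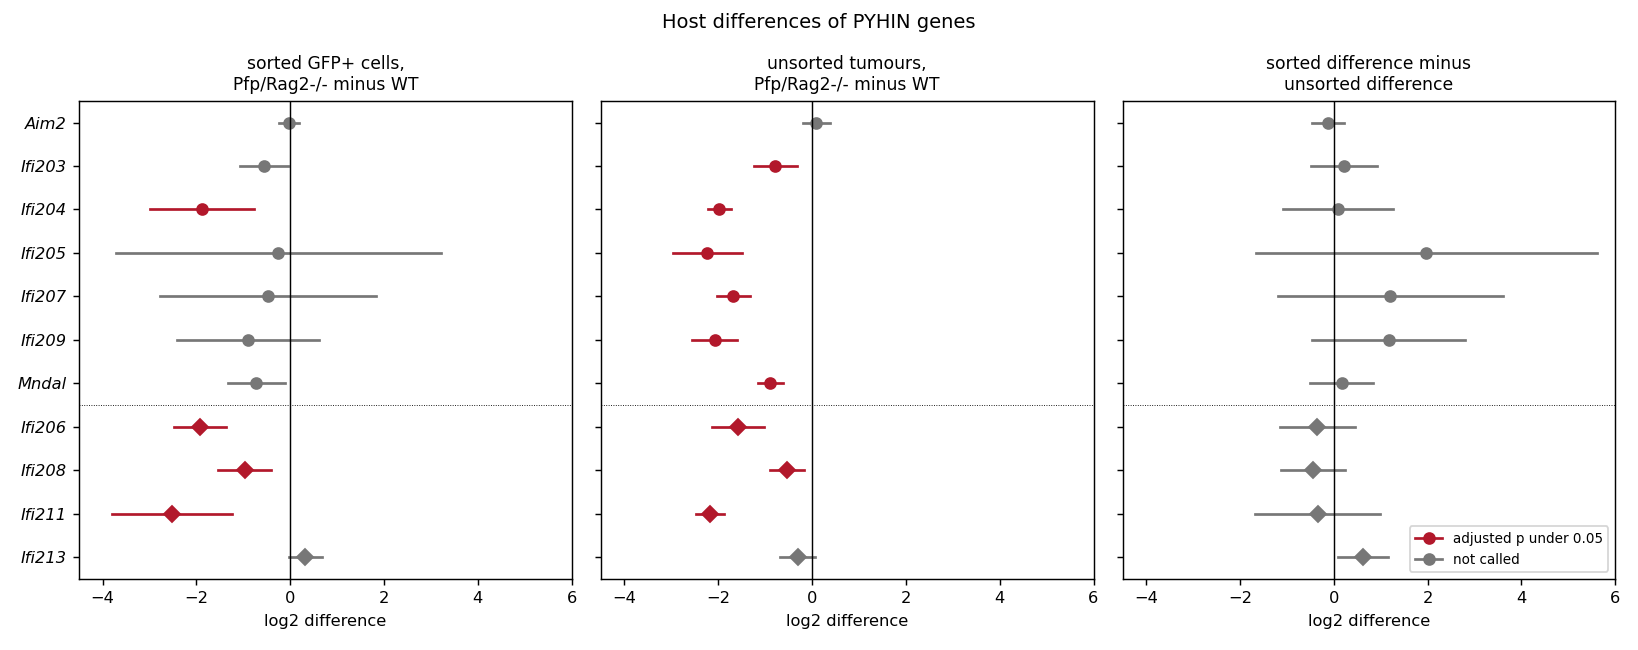
Log2 differences with 95% intervals (limma, 3 libraries per group) between Pfp/Rag2-/- and WT hosts in sorted GFP+ cells and in unsorted tumours, and the difference between these 2 differences; circles are the members, diamonds other PYHIN genes, red marks an adjusted p under 0.05. Ifi204 is near -2 in both settings, Aim2 is near 0 in both, and no difference between settings is called.

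In unsorted tumours 6 of the 7 members fell in Pfp/Rag2-/- hosts, and Aim2 did not. The background was 29.9% of 15448 genes called and 15.1% called lower, and the median log2 difference was -1.68 over the members and 0.05 over all genes. Ifi205 fell by 2.23 on the log2 scale (SE 0.32, adjusted p = 0.00271, limma), Ifi209 by 2.07 (SE 0.20, 0.000684) and Ifi207 by 1.68 (SE 0.15, 0.000448), and Ifi204 fell by 1.97 (SE 0.11, 8.16e-05). Mndal fell by 0.89 (SE 0.11, adjusted p = 0.00186) and Ifi203 by 0.79 (SE 0.19, 0.0222). Aim2 differed by 0.09 (95% interval -0.19 to 0.38, adjusted p = 0.589). For all 6 genes the Pfp/Rag2-/- libraries lay below the WT ones, as they did for 23.1% of all genes.

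The unsorted samples also differed in their cells. Macrophage and microglia markers stood at 2.15% ± 0.223 of the GFP- level in unsorted Pfp/Rag2-/- tumours and at 7.03% ± 0.462 in unsorted WT tumours, and T cell markers at 0.124% and 3.12% (SD for the macrophage markers, n = 3 each; exact two-sided permutation test over samples, p = 0.1 for both lists, the smallest possible). All 18 macrophage markers had reads in both groups, with summed levels of 12200 to 13770 in Pfp/Rag2-/- tumours and 31780 to 46790 in WT tumours. Ifi205, at 0.789% and 3.74% of its own GFP- level in Pfp/Rag2-/- and WT tumours, and Ifi207, at 1.41% and 4.57%, were below the macrophage marker level in every unsorted library. Ifi204 was above it in every unsorted library, at 3.54% and 13.9%. The part of the macrophage share in these differences was not tested, and in unsorted samples fewer cells of a type and less RNA per cell cannot be told apart.

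Some of these calls depended on a setting. Ifi203 was lost without Pfp/Rag2-/- library 1 (adjusted p = 0.0583) or 2 (0.0614) and without WT library 2 (0.0640) or 3 (0.0718), and Ifi205 and Ifi207 were lost with all 18 libraries in 1 limma fit (0.137 and 0.0868).

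Whether the host difference itself changed between sorted cells and unsorted tumours was tested as an interaction over 12 libraries. It was called for 0 of the 7 members, for 0.934% of all 16161 genes, and for 0 members under each of the 23 alternatives run, edgeR and DESeq2 included (DESeq2 gave Ifi207 no adjusted p). At an unadjusted p under 0.05 the count of members was also 0. For Ifi204 the sorted difference minus the unsorted one was 0.09 (95% interval -1.08 to 1.26) and for Aim2 -0.12 (-0.47 to 0.22). The interval of Ifi205, from -1.66 to 5.61, and of Ifi207, from -1.19 to 3.60, allow large differences of either sign. The count over all genes moved between 0 and 1105 when any 1 of the 12 libraries was left out.

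**Figure D4:**
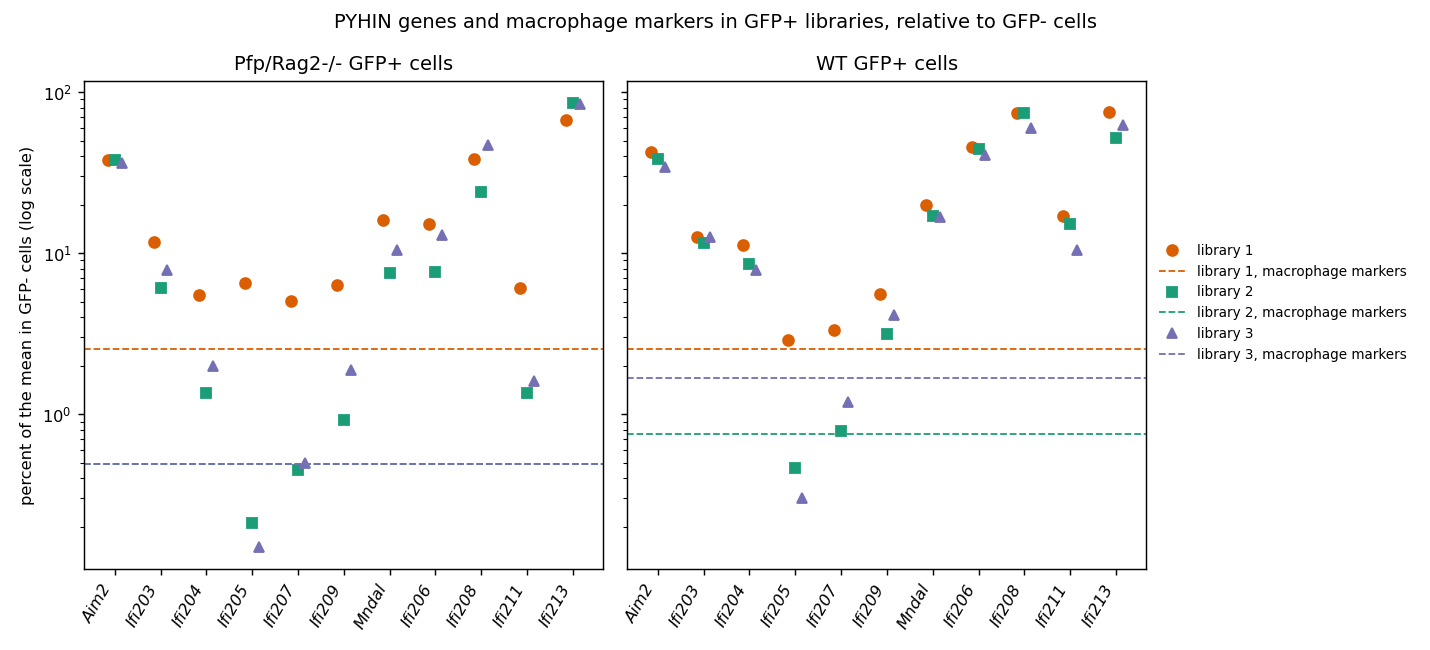
Level of each PYHIN gene in each sorted GFP+ library as a percentage of its mean in GFP- cells (log scale), with the same percentage for 18 macrophage and microglia markers as dashed lines; the lines of Pfp/Rag2-/- libraries 2 and 3 coincide at 0.492%. Aim2 lies at 34.0% to 42.5% in all 6 libraries, and Ifi207 at or near the macrophage level in libraries 2 and 3 of both hosts.

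Read against the GFP- cells, which came from WT hosts alone, the members in sorted GFP+ cells ranged from well above to below the macrophage marker level. Aim2 was at 37.4% ± 0.995 of its GFP- level in Pfp/Rag2-/- GFP+ cells and 38.3% ± 4.25 in WT GFP+ cells. Mndal was at 11.4% ± 4.39 and 17.9% ± 1.68, and Ifi203 at 8.56% ± 2.85 and 12.2% ± 0.594, in the same order of hosts (SD, n = 3). These 3 genes were above the macrophage marker level in all 6 libraries.

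Ifi207 stood at 5.04%, 0.452% and 0.497% of its GFP- level in Pfp/Rag2-/- GFP+ libraries 1 to 3, and at 3.31%, 0.787% and 1.19% in WT GFP+ libraries 1 to 3. Macrophage markers in the same libraries were at 2.54%, 0.492% and 0.492%, and at 2.56%, 0.750% and 1.67%. Ifi205 was below the marker level in libraries 2 and 3 of both hosts. Ifi204 was above the marker level in all 6 libraries, at 5.48%, 1.35% and 2.00% in Pfp/Rag2-/- hosts and at 11.2%, 8.50% and 7.90% in WT hosts. Ifi209 was also above it in all 6, at 6.32%, 0.921% and 1.87% in Pfp/Rag2-/- hosts and at 5.57%, 3.13% and 4.12% in WT hosts. By the sum of the markers instead of their median, Pfp/Rag2-/- library 2 stood at 1.62%, above its Ifi204 and Ifi209 values. The part of carried-over RNA in these values was not tested. Endothelial markers stood at 39.5% ± 20.3 of the GFP- level in Pfp/Rag2-/- GFP+ cells and 12.4% ± 11.7 in WT GFP+ cells, and pericyte and fibroblast markers at 43.7% ± 27.4 and 7.41% ± 6.97 in the same order of hosts (SD, n = 3; exact two-sided permutation p = 0.1 for both lists, the smallest possible).

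A further comparison asks how tumour cells grown in a host differ from the cultured cells injected. In Pfp/Rag2-/- GFP+ cells, 5 of the 6 members tested rose over culture, where 72.2% of 14487 genes were called and 35.1% were called higher. In WT GFP+ cells, 6 of 6 rose, where 65.6% of 14261 genes were called and 30.3% were called higher. Ifi205 did not pass the filter of a normalized count of 10 in 3 libraries in either comparison. The median log2 difference over the 6 members was 1.59 for Pfp/Rag2-/- and 2.98 for WT GFP+ cells, and over all genes it was -0.01 and -0.04. Both comparisons use the same cultured libraries.

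Ifi203 was 434 ± 145 in Pfp/Rag2-/- GFP+ cells and 622 ± 30.2 in WT GFP+ cells, against 58.4 ± 11.6 in culture (SD, n = 3). The log2 differences were 2.84 (SE 0.23, limma adjusted p = 6.03e-06) and 3.41 (SE 0.14, 3.49e-07). Every GFP+ library was above every cultured one. For Aim2 the log2 differences were 0.56 (SE 0.06, 4.88e-05) in Pfp/Rag2-/- hosts and 0.59 (SE 0.09, 0.000651) in WT hosts, the smallest of the called differences.

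Mndal rose in WT GFP+ cells (log2 0.98, SE 0.09, limma adjusted p = 2.68e-05) and was not called in Pfp/Rag2-/- GFP+ cells (log2 0.26, SE 0.23, adjusted p = 0.324). In Pfp/Rag2-/- cells Mndal libraries overlapped with culture, and the difference was called without library 2 (0.53, adjusted p = 0.0268). Ifi204 rose by 3.06 (SE 0.18, adjusted p = 2.07e-06) in WT GFP+ cells and by 1.18 (SE 0.44, 0.0362) in Pfp/Rag2-/- GFP+ cells. The Pfp/Rag2-/- call of Ifi204 was lost without library 3 of the GFP+ cells (0.0501), without cultured library 1 (0.0560), 2 (0.112) or 3 (0.0973), with no filter (0.0680) and with the macrophage share subtracted (0.273).

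Ifi209 rose by 2.01 (SE 0.58, limma adjusted p = 0.0120) in Pfp/Rag2-/- and by 2.91 (SE 0.25, 1.62e-05) in WT GFP+ cells. Ifi207, with 1 read in culture, had 546 reads in Pfp/Rag2-/- and 465 reads in WT GFP+ cells, which per depth is 529-fold (exact 95% interval 94.6 to 20930) and 463-fold (82.7 to 18320) higher, intervals that cover counting error only. Its fitted log2 differences, 6.15 (adjusted p = 0.000179) and 6.62 (1.47e-05), depend on the added 1. Once the macrophage share was subtracted, Ifi207 was called in neither host (0.275 and 0.192) and Ifi209 not in Pfp/Rag2-/- hosts (0.129), which left 2 members called in Pfp/Rag2-/- and 5 in WT GFP+ cells. Quantile normalization also left 3 called in Pfp/Rag2-/- cells, without Ifi204 (0.116) and Ifi209 (0.0508).

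**Figure D5:**
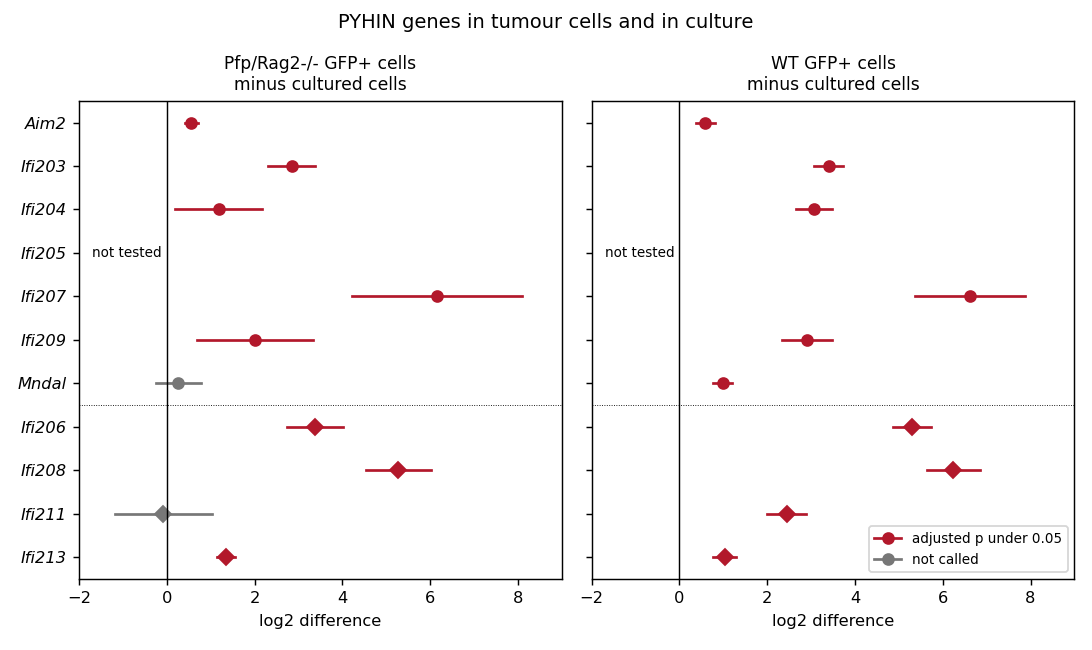
Log2 differences with 95% intervals (limma, 3 libraries per group) between GFP+ tumour cells of each host and cultured GFP+ cells; circles are the members, diamonds other PYHIN genes, red marks an adjusted p under 0.05. Aim2 differs by 0.56 and 0.59 in the 2 panels, Ifi204 by 1.18 and 3.06, and Ifi205 was not tested.

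Between the 2 sorted fractions of WT tumours, all 7 members rose in GFP- cells over GFP+ cells, where 76.4% of 16083 genes were called and 42.7% were called higher. The log2 differences were 6.92 for Ifi205 (SE 0.81, limma adjusted p = 0.000360), 6.07 for Ifi207 (SE 0.50, 0.000102), 4.57 for Ifi209 (SE 0.22, 2.44e-05), 3.44 for Ifi204 (SE 0.19, 3.18e-05), 3.03 for Ifi203 (SE 0.08, 1.38e-05), 2.49 for Mndal (SE 0.09, 1.63e-05) and 1.37 for Aim2 (SE 0.17, 0.000494). Aim2 thus differed least. The median over all genes was 0.19, against 3.44 over the members, and it moved by -0.41 with quantile normalization and by -0.16 with TMM factors. All 7 stayed called higher under both.

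Of the 7 other PYHIN genes with a read, 5 were tested in sorted cells and 4 in unsorted tumours, and 3 fell in each. Over all genes tested, 15.3% were called lower in sorted cells and 15.1% in unsorted tumours. In sorted GFP+ cells Ifi211, Ifi206 and Ifi208 fell in Pfp/Rag2-/- hosts by 2.53 (SE 0.54, limma adjusted p = 0.0141), 1.92 (SE 0.24, 0.00187) and 0.97 (SE 0.24, 0.0222). In unsorted tumours the same genes fell by 2.18 (SE 0.13, 9.92e-05), 1.58 (SE 0.24, 0.00334) and 0.53 (SE 0.16, 0.0408). Ifi206 had 224, 114 and 192 in Pfp/Rag2-/- GFP+ cells, against 679, 658 and 604 in WT GFP+ cells. These libraries did not overlap, and Ifi206 kept its call in both host comparisons under every alternative run.

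Ifi211 shares 72.8% of its windows of 50 bases with other genes of the locus, so its reads may in part be theirs. In sorted cells Ifi211 was lost without Pfp/Rag2-/- library 2 (adjusted p = 0.0505) or 3 (0.0559) or WT library 2 (0.0551), and Ifi208 without WT library 1 (0.0694) or 2 (0.0781) or both libraries numbered 1 (0.0738). In unsorted tumours Ifi208 was lost without any 1 library but WT library 1, with adjusted p of 0.0801 to 0.121, with no filter (0.0548) and in 1 fit of all libraries (0.135).

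Ifi213 was not called between hosts. It had 2532, 3237 and 3190 in Pfp/Rag2-/- GFP+ cells, against 2852, 1973 and 2367 in WT GFP+ cells (log2 0.32, SE 0.15, adjusted p = 0.141), and the libraries overlapped. Without both libraries numbered 1 it was called higher (0.57, adjusted p = 0.0150). Unsorted tumours differed by -0.30 (SE 0.16, adjusted p = 0.191), a difference that was called without WT library 1 (-0.47, 0.0178). Ifi203-ps, a pseudogene, averaged 15.6 in Pfp/Rag2-/- GFP+ cells and 13.5 in WT GFP+ cells (log2 -0.02, adjusted p = 0.982, limma), and Ifi214 had 14.6, 0 and 0 in Pfp/Rag2-/- GFP+ cells. Ifi202b had 2, 3 and 0 reads in GFP- cells and none elsewhere.

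Over culture, 3 of 4 of these genes tested rose in Pfp/Rag2-/- GFP+ cells and 4 of 4 in WT GFP+ cells. Over all genes tested, 35.1% and 30.3% were called higher in the same order of hosts. Ifi208 differed most, by 5.27 (SE 0.32, limma adjusted p = 9.74e-07) in Pfp/Rag2-/- hosts and 6.24 (SE 0.26, 3.44e-07) in WT hosts. Ifi211 was not called in Pfp/Rag2-/- GFP+ cells (-0.09, adjusted p = 0.882), and without library 1 it was called lower (-0.75, 0.00822). Between the WT fractions, 6 of 6 rose in GFP- cells, by 0.53 for Ifi208 (SE 0.13, 0.00888) to 5.20 for Ifi214 (SE 0.58, 0.0003). Of all genes tested between the WT fractions, 42.7% were called higher. Ifi208 was lost there in 1 fit of all libraries (0.0667) and Ifi213 with quantile normalization (0.364). Before scaling, Ifi208 had 1743 reads in GFP- cells and 1834 in WT GFP+ cells, and Ifi213 had 7959 and 7625.

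The other genes of the inflammasome and 2 further lists are set against all genes, of which 15.3% fell and 30.4% were called in sorted GFP+ cells and 15.1% fell and 29.9% were called in unsorted tumours. Of 13 inflammasome genes, 11 were tested in sorted GFP+ cells, where 4 fell in Pfp/Rag2-/- hosts and 1 rose, with a median of -0.29, and 12 in unsorted tumours, where 9 fell and 0 rose, with a median of -1.14. Casp1, the protease that AIM2 activates, had 112, 78.1 and 95.8 in Pfp/Rag2-/- GFP+ cells, against 560, 478 and 430 in WT GFP+ cells (log2 -2.35, SE 0.17, limma adjusted p = 0.000244). Casp4, the protease that senses bacterial lipopolysaccharide, fell by 1.13 (SE 0.16, 0.00328) and Il18 by 0.92 (SE 0.27, 0.0416), and Nlrc4, an inflammasome sensor of bacterial proteins, rose by 1.02 (SE 0.22, 0.0138).

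The Il18 call was lost without each of 5 of the 6 libraries, all but Pfp/Rag2-/- library 1, and with DESeq2 (0.0817), and the Nlrc4 call with quantile normalization (0.0504), without Pfp/Rag2-/- library 3 (0.0578) or with neither library numbered 1 (0.0726). Il18 was also lost with no filter (0.0739) and without both libraries numbered 1 (0.0591). Pycard, the adaptor of AIM2, was not called in sorted cells (log2 -0.29, adjusted p = 0.728), and it fell in unsorted tumours (-1.40, 0.00591). The lowest calls in unsorted tumours were Il1b (-2.95, SE 0.30, adjusted p = 0.000795), Mefv, the pyrin gene (-2.94, SE 0.40, 0.00224; 0.0859 in 1 fit of all libraries), and Casp1 (-2.62, SE 0.22, 0.000380).

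Of 16 genes of cytosolic DNA sensing, 15 were tested in each setting, against the same shares over all genes. In sorted GFP+ cells 6 fell in Pfp/Rag2-/- hosts and 1 rose (median -0.25), and in unsorted tumours 6 fell and 0 rose (median -0.20). Tmem173, encoding STING, had 462, 470 and 437 in Pfp/Rag2-/- GFP+ cells, against 821, 772 and 687 in WT GFP+ cells, without overlap (log2 -0.73, SE 0.08, limma adjusted p = 0.00142). Samhd1, which degrades nucleotides, fell by 1.01 (SE 0.12, 0.00147) and Zbp1, a nucleic acid sensor, by 0.71 (SE 0.13, 0.00766), while Xrcc5, a DNA repair subunit, rose by 0.36 (SE 0.07, 0.0115; 0.168 in 1 fit of all libraries). In unsorted tumours Dnase1l3, a nuclease of phagocytes, fell by 5.05 (SE 0.55, 0.00106), the kinase gene Ikbke by 1.75 (SE 0.27, 0.00371) and Samhd1 by 1.26 (SE 0.15, 0.00125).

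Of 15 genes of interferon signalling, 14 were tested in sorted GFP+ cells, where 5 fell in Pfp/Rag2-/- hosts and 2 rose (median -0.22), and 15 in unsorted tumours, where 7 fell and 1 rose (median -0.25). In sorted cells the transcription factor Irf1 fell by 2.81 (SE 0.24, limma adjusted p = 0.000498) and Stat2 by 1.47 (SE 0.13, 0.000610). Irf7, a transcription factor of the type I interferon response, rose by 1.07 (SE 0.20, 0.00863) and Tyk2, an interferon receptor kinase, by 0.38 (SE 0.09, 0.0183; lost without WT library 1, at 0.0583, or 2, at 0.0661, and without both libraries numbered 1, at 0.0905). In unsorted tumours Irf8 fell by 2.49 (SE 0.20, 0.000321), Irf1 by 2.40 (SE 0.08, 1.53e-05), and Irf7 rose by 1.03 (SE 0.13, 0.00195). Ifng, the gene of interferon gamma, had 0 reads in all 3 unsorted Pfp/Rag2-/- libraries and 21.2, 42.3 and 40.1 in unsorted WT libraries, which is at least 12.8-fold lower against a floor of 3 reads per library, and was called. With Ifng at that bound the median of the list was still -0.25. In sorted GFP+ cells, where it was not tested, Ifng had 149, 0.92 and 3.68 in Pfp/Rag2-/- hosts, against 63.2, 1.9 and 9.21 in WT hosts. The interaction was called for 0 genes of the 3 lists.

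Of the inflammasome genes, 7 of 9 tested rose over culture and 2 fell in Pfp/Rag2-/- GFP+ cells (median 1.99), and 7 of 9 rose and 2 fell in WT GFP+ cells (median 2.11). The 2 that fell were Casp8 and Il18 in both hosts. Il1b and Nlrp3, called higher in both hosts, had 0 reads and 1 read in culture. In each host their GFP+ library 1 stood above libraries 2 and 3. Il1b held 2866, 129.5 and 117.9 in libraries 1 to 3 from Pfp/Rag2-/- hosts, against 1869, 158.7 and 258.8 from WT hosts. Nlrp3 held 1245, 39.5 and 42.37, against 667.5, 96.91 and 60.78. Their GFP- means were 80380 and 23900. How much carried-over RNA added to these inflammasome values was not tested. Over all genes 35.1% rose in Pfp/Rag2-/- cells and 30.3% in WT cells. Of the DNA sensing genes 5 of 14 rose and 6 fell in Pfp/Rag2-/- cells (median 0.04), the rises being near the share over all genes, and 8 of 15 rose and 3 fell in WT cells (median 0.19). Of the interferon signalling genes 7 of 14 rose and 2 fell in Pfp/Rag2-/- cells (median 0.11), and 8 of 14 rose and 2 fell in WT cells (median 0.37). In GFP- over WT GFP+ cells, where 42.7% of all genes rose, 12 of 12 inflammasome genes rose (median 5.05), 10 of 15 DNA sensing genes rose and 3 fell (median 0.97), and 13 of 15 interferon signalling genes rose (median 2.496).

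Over the 18 libraries, log2 levels of the members moved together. Pearson's r was 0.836 to 0.985 over the 15 pairs without Aim2 and 0.855 to 0.901 over the 6 pairs with it. Among 11201 genes with a mean of at least 100, those most like Ifi207 were Plek (0.997) and Cd52 (0.996), and those most like Ifi204 were Calhm6 (0.990), Ptpn18 (0.988) and Pf4 (0.987). Ifi203 was most like Dock10 (0.993) and Slc15a3 (0.983), Ifi205 like Glipr1 (0.993), Bcl2a1d (0.989) and Cd300a (0.987), and Ifi209 like Sirpb1c (0.994), Ms4a14 (0.991) and Scimp (0.990). Mndal was most like Myd88 (0.989), Ikbke (0.986) and Crem (0.985), and Aim2 like Sgk1 (0.971), Bcl6 (0.970) and Rnf167 (0.969), the lowest of the leading values. All of these share the same libraries, and the GFP- cells, which are high for every member, set much of each value.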

How the data were processed

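The deposited values are a signal: the authors divided whole read counts per gene by 1 DESeq2 size factor per library, per the submitters' processing notes, which name STAR 2.5.2b, DESeq2 and GRCm38. Neither the read counter nor its annotation release is named in the labels. Divided by the library's smallest step, 100% of values gave whole numbers to within 0.05, so reads were recovered for edgeR 4.0.16 and DESeq2 1.42.0 as alternatives. IDs were named with GENCODE vM21 (48349 of 48795).

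Each comparison was fitted to its own libraries. Genes at 10 or more in at least 3 libraries were kept, and log2 of the value plus 1 was tested with limma 3.58.1 (eBayes with trend, two-sided) with Benjamini-Hochberg adjustment over all genes tested. Recovered totals of 19172814 to 21141662 reads set the counting error. Same-numbered GFP+ libraries of the 2 hosts deviated together with r of 0.616, 0.483 and 0.102, so they were also fitted as pairs. Libraries with different numbers had r of -0.572 to 0.443, a range that holds the value of the pair numbered 3. The labels give only the numbers, and no other comparison met the threshold of 0.1 in all pairs.

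The macrophage share is the median ratio to the GFP- mean over 18 markers. Carry-over subtracted means that this share of each gene's GFP- mean was taken off. GFP- cells came from WT hosts alone, so the subtraction in Pfp/Rag2-/- libraries also used WT values. Levels in GFP- cells of Pfp/Rag2-/- hosts were not measured. Other alternatives were 10 added to the value, no filter, a minimum of 50, quantile and TMM normalization, 1 fit of all libraries and each library left out. Members and gene lists were chosen with earlier results of these data known. Named genes were all members, all PYHIN genes with a read, up to 3 highest and 3 lowest called genes of each list per host comparison, and the 3 genes most like each member; Pycard was added after its values were seen. Some genes under this rule, and a further motif searched, are not reported here. Tests were checked on simulated data.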

Additional observations from a re-analysis of the deposited data

How the results depend on the processing

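In sorted cells, members called numbered 2 with DESeq2 and with all 18 libraries in 1 fit, 3 with the replicate block, 4 without both libraries numbered 1 and 0 to 4 with 1 library left out, against 1 as reported. Genes called numbered 2971 in 1 fit, 2340 without the libraries numbered 1 and 2522 to 5532 with 1 left out. In unsorted tumours the range with 1 left out was 2280 to 6142. For Pfp/Rag2-/- GFP+ cells against culture, 3 members were called with a minimum of 50, where 4 were tested, 3 with quantile normalization and 2 with carry-over subtracted. For the interaction, 61 genes were called with no filter, 298 with a minimum of 50, 270 with quantile normalization, 34 in 1 fit of all libraries, 70 with edgeR, 1209 with DESeq2, 478 with carry-over subtracted, 0 without the libraries numbered 1 and 0 to 1105 with 1 left out.

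Signs turned for differences that were not called. The sorted difference of Aim2 was 0.041 without the libraries numbered 1 and -0.11 to 0.051 with 1 left out. That of Ifi205 was 0.040 with 10 added in place of 1, 0.88 with edgeR, 1.13 with carry-over subtracted and -1.90 to 0.70 with 1 left out. That of Ifi207 was 0.16 with edgeR, 0.18 with DESeq2, 0.074 with carry-over subtracted and -1.60 to 0.12 with 1 left out. Against culture, Mndal in Pfp/Rag2-/- cells was -0.024 without library 1 and ranged from -0.024 to 0.53, and Ifi211 was 0.29 with edgeR, 0.24 with DESeq2 and -0.75 to 0.31. In the interaction, without the libraries numbered 1, Ifi203 was -0.0063, Ifi204 -0.33 and Mndal -0.045. With 1 left out they were -0.031 to 0.44, -0.48 to 0.52 and -0.12 to 0.43, and Ifi204 was -0.27 with carry-over subtracted. The causes were not tested. The block changed no other call of a member.

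Depth limits Ifi205 and Ifi207 in culture, where they had 5 reads and 1 read.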
